A study of Mus musculus with 6 samples.

Results

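The mitochondrial ribosomal proteins of mouse were read from the RNA of BV2 cells with and without PGC-1α overexpression. Members were the protein-coding genes whose RefSeq symbol begins with Mrpl (large subunit) or Mrps (small subunit) followed by a number, and whose transcript accession is carried by a probe of the array. By this rule there were 78 genes among the 23462 genes that the array's probes matched, 49 of them Mrpl and 29 Mrps, measured by 104 probes. Of the 78, 77 passed the filter on dim or missing values and were tested among 17062 genes, and Mrpl49 alone did not.

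BV2 is an immortalised mouse microglial line. The 6 arrays held RNA of BV2 cells labelled as treated with LPS, a bacterial lipopolysaccharide that activates microglia, 3 from cells without PGC-1α overexpression (control) and 3 from cells with PGC-1α overexpression. The cell culture methods give LPS for 6 h at 500 ng/ml without naming the arrays. They describe a lentiviral vector with a ubiquitin promoter, a FLAG tag and EGFP that carried the PGC-1α coding sequence, puromycin selection, and a negative control virus for the other group. No label says that the 3 samples of a group came from separate cultures, so the p-values below measure the spread between these samples, which may be technical.

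Mitochondria carry their own ribosome, which makes the few proteins encoded by mitochondrial DNA, all of them membrane subunits of the respiratory chain and ATP synthase. Its RNA comes from the mitochondrial genome, while each of its proteins is encoded in the nucleus, made in the cytosol and imported. Many of these proteins have a counterpart in the ribosome of bacteria, and many others were added during the evolution of mitochondria. PGC-1α is a transcriptional coactivator that binds no DNA sequence of its own and is known for raising mitochondrial biogenesis through factors such as NRF1, GABP (an ETS factor) and ERRα.

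The promoters of the 7 members that passed the test in the same direction under both scalings used below are shown, so that the letters these factors are known to bind can be looked for. Each sequence holds the 150 bases before the annotated start, from RefSeq on GRCm38.p6, read 5′ to 3′ along the gene's own strand. Capitals mark matches on either strand to GCGCANGCG (an NRF1 core), CCGGAAG (an ETS core), TCAAGGTCA (an ERR site) or AAGATGGCG (a YY1 core). Mrpl9 and Mrpl47 rose, Mrpl36, Mrpl35, Mrpl41 and Mrps2 fell, and Mrps14 had a higher value from a probe near background.
Mrps14 (chr1:160195065-160195214, plus strand): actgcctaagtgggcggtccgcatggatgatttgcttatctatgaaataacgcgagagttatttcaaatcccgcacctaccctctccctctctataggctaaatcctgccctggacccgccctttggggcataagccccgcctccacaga
Mrpl9 (chr3:94443186-94443335, plus strand): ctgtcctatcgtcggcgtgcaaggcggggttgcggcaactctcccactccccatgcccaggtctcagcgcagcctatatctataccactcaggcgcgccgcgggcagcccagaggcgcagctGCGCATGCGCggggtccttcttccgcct
Mrpl47 (chr3:32736756-32736905, minus strand): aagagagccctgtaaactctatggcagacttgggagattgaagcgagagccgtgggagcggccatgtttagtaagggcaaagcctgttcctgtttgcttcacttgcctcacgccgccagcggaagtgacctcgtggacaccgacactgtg
Mrpl36 (chr13:73330859-73331008, plus strand): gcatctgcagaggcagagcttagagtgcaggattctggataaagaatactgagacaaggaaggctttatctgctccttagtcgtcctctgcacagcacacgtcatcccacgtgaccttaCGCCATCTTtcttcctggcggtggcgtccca
Mrpl35 (chr6:71823785-71823934, minus strand): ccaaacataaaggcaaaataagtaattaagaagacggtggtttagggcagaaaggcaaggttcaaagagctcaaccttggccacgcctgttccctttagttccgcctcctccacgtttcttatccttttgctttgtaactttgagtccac
Mrpl41 (chr2:24975099-24975248, minus strand): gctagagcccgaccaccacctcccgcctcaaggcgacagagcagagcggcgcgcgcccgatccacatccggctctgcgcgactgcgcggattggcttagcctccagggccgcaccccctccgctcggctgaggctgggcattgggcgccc
Mrps2 (chr2:28467916-28468065, plus strand): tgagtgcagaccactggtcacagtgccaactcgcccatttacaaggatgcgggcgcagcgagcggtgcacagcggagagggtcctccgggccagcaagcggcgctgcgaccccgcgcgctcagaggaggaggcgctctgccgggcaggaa
The window of Mrpl9 holds overlapping NRF1 matches on the opposite strands of 1 stretch, and that of Mrpl36 has 1 YY1 match. The other 5 windows hold none of the 4 motifs. A match describes letters only and is not a binding site.

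Over the whole set, 69 of the 78 members had a promoter in the RefSeq table, with 75 promoters in all. The 9 without one were Mrpl4, Mrpl13, Mrpl15, Mrpl19, Mrpl38, Mrpl54, Mrps28, Mrps34 and Mrps35. In windows of 300 bases (250 before the start and 50 after), the NRF1 core stood in 25.0% of 48 large subunit promoters and in 14.8% of 27 small subunit promoters, against 8.58% of 21263 promoters of protein-coding genes. The ETS core stood in 31.2% and 40.7% against 11.6%, and the YY1 core in 8.33% and 14.8% against 1.83%. No member promoter held the ERR letters, which 0.334% of protein-coding promoters held. The ETS core was thus the letter pattern most often found here, and it was found in both subunits.

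The arrays give a brightness for each probe, and all levels below are log2 intensities minus the 75th percentile of the array, called relative log2 intensity. That percentile was 1617, 1627 and 1893 intensity units in control cells and 1157, 856 and 1268 in PGC-1α cells. On this scale the median of all 17062 genes lay 0.23 (log2) higher with PGC-1α. Quantile normalization, which gives every array the same distribution, left that median at 0.03 and is printed beside the main values because it changes most calls on these genes. Ppargc1a, the gene for PGC-1α, was read by 2 probes with intensities of 9.06 to 22.3 on all 6 arrays, well above background on 4 and on 3 of them, so these probes do not check the labels (the place of the probes in the transcript was not examined). Of 12 microglia and macrophage markers, 11 were well above background on all 6 arrays and Cx3cr1 on none. Markers of other cells were detected too, among them Snap25 of neurons and Col1a1 and Dcn of fibroblasts. Of 6 neuronal markers 2 were well above background on all 6 arrays and 3 (Syt1, Slc17a7 and Gad1) on none. Of 5 fibroblast markers 4 were higher and 1 (Pdgfra) lower with PGC-1α, and their summed linear level, in units of the 75th percentile, was 15.4 to 16.6 in control cells and 26.6 to 32.0 with PGC-1α. The sum of the 11 microglial markers tested was 94.6 to 97.9 and 131.0 to 155.0. On this scale 6 microglial markers were higher, where 36.9% of all genes were higher. After quantile normalization 1 microglial and 3 fibroblast markers were higher, where 21.7% of all genes were. The part of such markers in the results was not tested.

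On the main scale 26 of 48 large subunit genes were higher with PGC-1α at an adjusted p under 0.05 and 3 were lower, by limma with Benjamini-Hochberg adjustment over all 17062 genes. In the small subunit 10 of 29 were higher and 1 was lower, and 1 of the 10, Mrps14, entered the test only through its PGC-1α arrays. Together 46.8% of the 77 members were higher, against 36.9% of all genes, and 5.19% were lower, against 19.6%. By subunit the share higher was 54.2% for Mrpl and 34.5% for Mrps, the latter below that of all genes. The groups did not overlap upward for 56 members (42.7% of all genes did so) and downward for 4 (22.8% of all genes). The median log2 fold change was 0.37 in the large subunit and 0.35 in the small subunit. These medians lay 0.14 and 0.12 above that of all genes, and the small gap between the subunits was not tested.

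The members are mostly bright genes, and on this scale the brightest and the dimmest genes of the array lay above those between. When all tested genes were put into 4 classes of equal size by mean signal, 72 of the 77 members fell in the brightest class. The 4266 genes of that class had a median log2 fold change of 0.35, with 45.7% of them higher and 4.76% lower. Within it the members had a median of 0.36, with 35 of 72 higher and 2 lower. The member values lay close to those of the class. The dimmest class, with 2 members, had a median of 0.54 and 48.8% of genes higher, and the classes between had 0.05 and -0.05, with 33.2% and 19.8% higher. After quantile normalization the median of the brightest class was -0.005 and that of its members -0.03, while the dimmest class had 0.34.

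**Figure D1:**
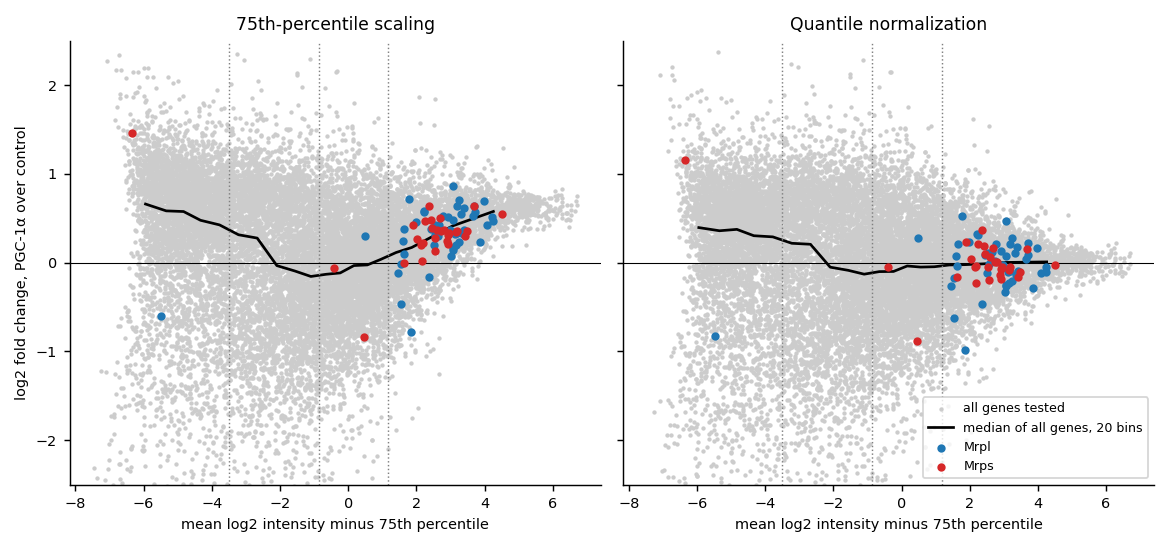
Log2 fold change (PGC-1α over control) against mean relative log2 intensity for 17062 genes (grey), Mrpl (blue) and Mrps (red) genes, on the main scale (left) and after quantile normalization (right). Dotted lines part the 4 classes of signal, the black line is the median of all genes in 20 bins, and the vertical axis stops at 2.5 either way; 72 of the 77 members sit in the brightest class and spread around the black line in both panels.

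After quantile normalization 2 large subunit genes were higher and 5 lower, and in the small subunit 1 was higher and 1 lower. Over both subunits this was 3.9% of members higher, against 21.7% of all genes, and 7.79% lower, against 20.9%. The medians were -0.003 for Mrpl and -0.05 for Mrps, or -0.04 and -0.08 relative to all genes. The large subunit median was close to 0, so that scale gave these genes no common direction. The brightest class as a whole also had few calls there, with 7.64% of its genes higher and 9.82% lower. Mrpl9 and Mrpl47 were higher on both scales, and Mrps2, Mrpl41, Mrpl36 and Mrpl35 were lower on both. Mrps14 passed on both too, but both scales read the same spots, of which only 1 of 3 in control cells was well above background.

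**Figure D2:**
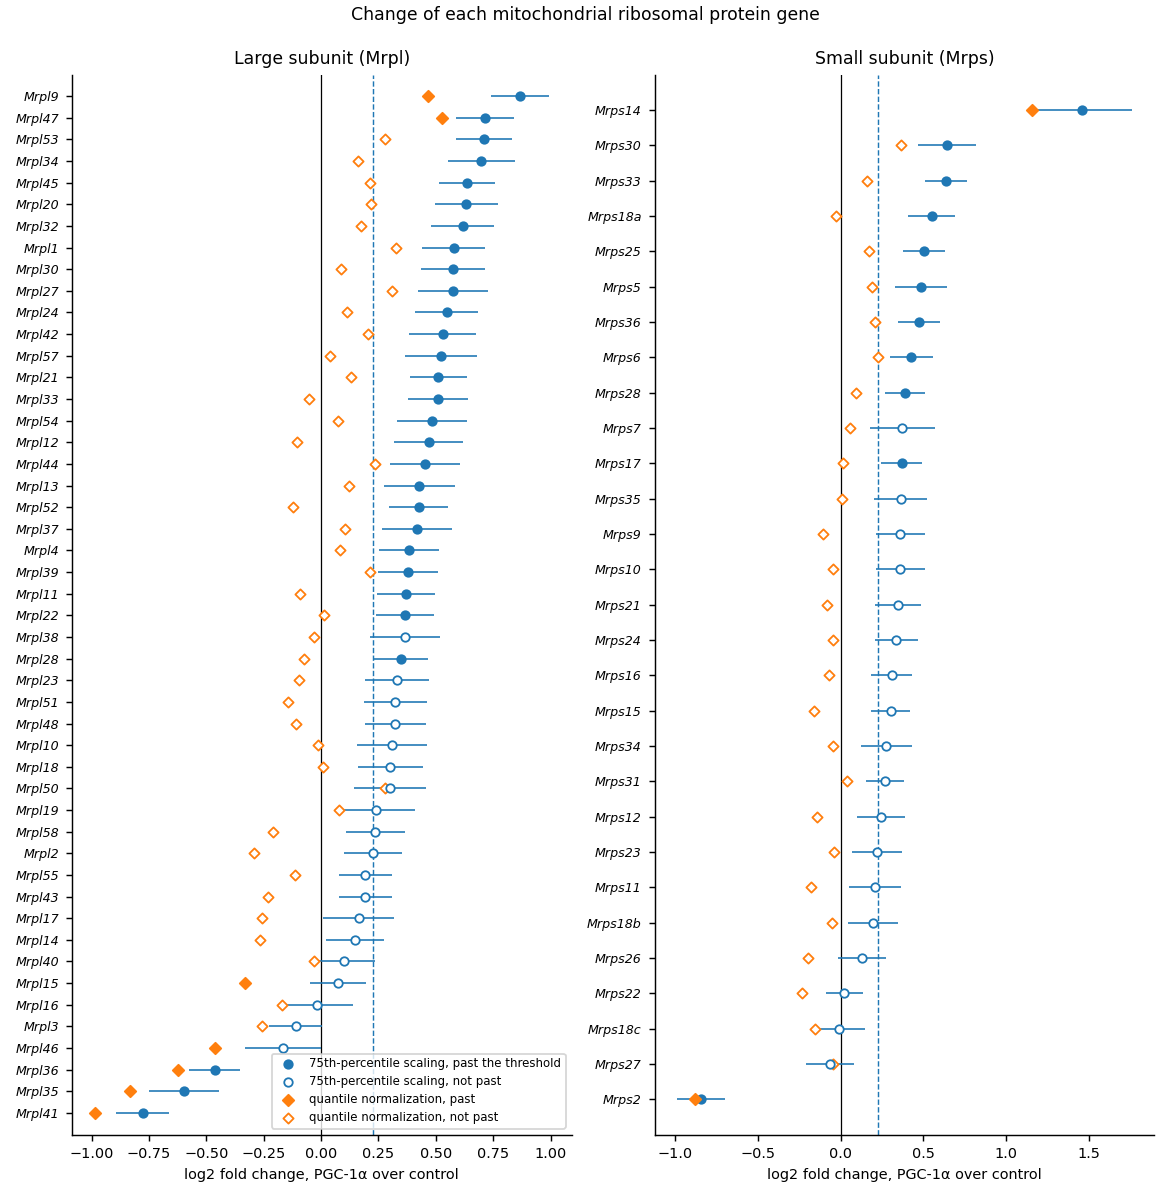
Log2 fold change (PGC-1α over control) of the 77 tested members, ordered within each subunit, on the main scale (blue circles, bars of 1 SE; dashed line at the median of all genes, 0.23) and after quantile normalization (orange diamonds). Filled symbols passed an adjusted p of 0.05. The orange diamonds sit left of the circles in nearly every row, and only 7 genes are filled in both colours.

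Both slides of the array held both groups. On slide 2, with 1 array a group and no test, 66 of 77 members were higher with PGC-1α, with a median difference of 0.30 in the large subunit and 0.26 in the small, against 0.19 over all genes, 10602 of 16978 of which were higher. On slide 1 alone (2 against 2 arrays), 15 Mrpl genes were higher and 1 was lower, and 7 Mrps genes were higher and 1 was lower, where 6069 of 17636 genes were higher. With slide as a block, 28 Mrpl and 14 Mrps genes were higher and 3 and 1 were lower, while the higher calls over all 17062 genes went from 6290 to 7227.

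Mrpl9 encodes bL9m, a large subunit protein with a bacterial counterpart, and was the large subunit gene with the highest log2 fold change. Its relative log2 intensity was 2.70, 2.58 and 2.62 in control cells and 3.46, 3.66 and 3.37 in PGC-1α cells. The 3 PGC-1α arrays all lay above the controls. The log2 fold change was 0.87 ± 0.13 (SE, adjusted p = 0.00133 by limma), and its other probe gave 0.88. After quantile normalization it was 0.46 ± 0.12 (adjusted p = 0.0155).

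Mrpl47, the counterpart of bacterial uL29 near the exit of the peptide tunnel, read 1.30, 1.39 and 1.56 in control cells and 2.04, 2.19 and 2.17 in PGC-1α cells. The groups were again apart, with every PGC-1α array above every control array. Its log2 fold change was 0.72 ± 0.13 (adjusted p = 0.00284 by limma), and 0.53 ± 0.12 after quantile normalization (adjusted p = 0.00904). Mrpl9 and Mrpl47 passed in all 22 analyses tried.

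The next Mrpl genes rose on the main scale and did not pass after quantile normalization. Mrpl53, found only in mitochondrial ribosomes, rose by 0.71 ± 0.12 on the log2 scale (adjusted p = 0.00264 by limma) and had 0.28 ± 0.11 after quantile normalization (adjusted p = 0.0782). Mrpl34, a small protein with a bacterial counterpart, rose by 0.70 ± 0.15 (0.16 after quantile normalization). Mrpl45, which sits at the tunnel exit and ties the ribosome to the inner membrane, rose by 0.63 ± 0.12 (0.21), and its 3 PGC-1α arrays at 3.47, 3.63 and 3.38 lay above controls at 2.85, 2.89 and 2.84. Mrpl20, an early-assembling protein that binds the ribosomal RNA in bacteria, rose by 0.63 ± 0.14 (0.22), with replicate 2 of the PGC-1α group left out of its fit because that spot was marked as an outlier.

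Mrps2 encodes uS2m of the small subunit and fell. Its relative log2 intensity was 0.94, 0.91 and 0.82 in control cells and -0.18, 0.27 and 0.06 in PGC-1α cells. Every PGC-1α array lay below every control array. The log2 fold change was -0.84 ± 0.14 (adjusted p = 0.00248 by limma) and -0.88 after quantile normalization (adjusted p = 0.00319), and a second probe gave -0.89. It was lower in all 22 analyses.

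Mrpl41, a protein particular to the mitochondrial large subunit, read 2.27, 2.21 and 2.23 in control cells and 1.36, 1.46 and 1.56 with PGC-1α. The groups were far apart compared with the spread within each. Its log2 fold change was -0.78 ± 0.12 (adjusted p = 0.00147 by limma), and -0.99 after quantile normalization (adjusted p = 0.000715). It too was lower in all 22 analyses, and it was 1 of 2 members of the brightest class that fell on the main scale.

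Mrpl36, whose bacterial counterpart bL36 is a small zinc-binding protein, was the other. It read 1.73, 1.79 and 1.83 in control cells and 1.32 on each of the 3 PGC-1α arrays, without overlap. The log2 fold change was -0.46 ± 0.11 (adjusted p = 0.00934 by limma) and -0.62 after quantile normalization, and on slide 1 alone it did not pass (adjusted p = 0.062). Mrpl35, the counterpart of bacterial bL35, was dim, at intensities of 39.7 to 52.2 in control cells and 14.4 to 24.6 with PGC-1α. Its log2 fold change was -0.60 ± 0.15 (adjusted p = 0.0114 by limma). Under normexp, another way to correct for background, on the 75th percentile scale, the direction of Mrpl35 turned, at 0.19 (adjusted p = 0.22 by limma). With normexp and quantile normalization it had -0.25 (adjusted p = 0.091), and on slide 1 alone -0.54 (adjusted p = 0.057), both lower without passing.

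**Figure D3:**
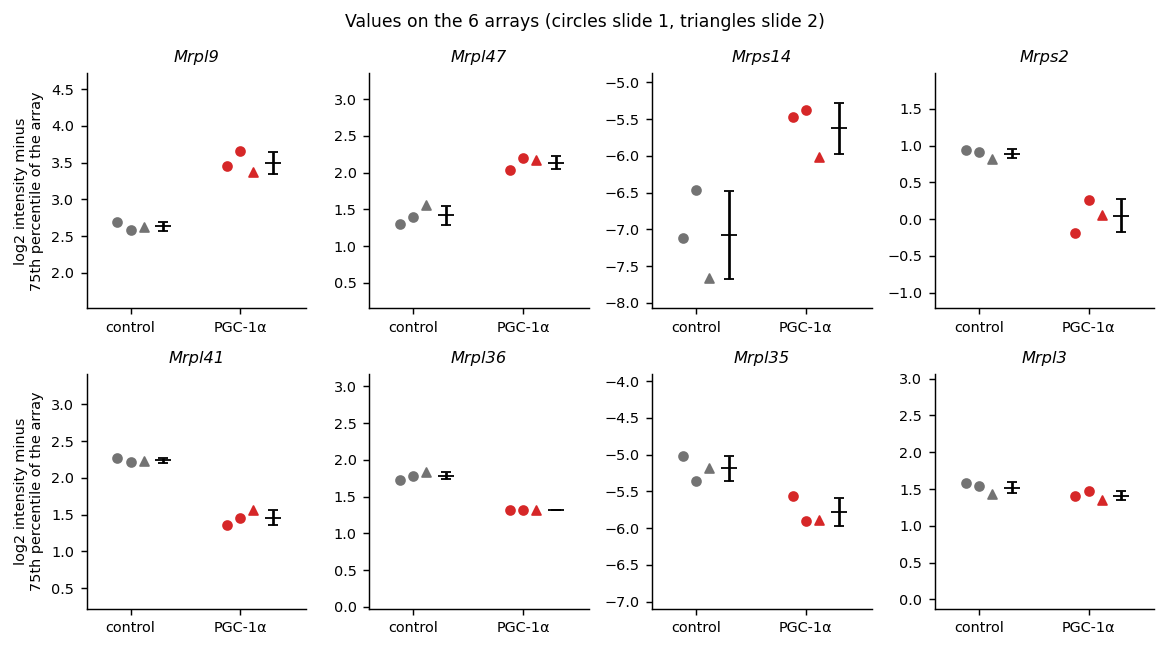
Relative log2 intensity on each array (circles slide 1, triangles slide 2; control grey, PGC-1α red; black marks the mean with 1 SD, 3 arrays a group) of the 7 genes that passed on both scales and of Mrpl3, which did not pass. Each panel spans 3.2 log2 units; the groups are apart in the first 7 panels, and overlap for Mrpl3.

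Mrps14, uS14m of the small subunit head, had the largest value of the small subunit and the weakest signal behind it. Its tested probe read -7.12, -6.47 and -7.66 in control cells and -5.48, -5.37 and -6.02 with PGC-1α, at intensities of 9.36 to 26.0. It was well above background on 1 of 3 control arrays and on all 3 PGC-1α arrays. The log2 fold change was 1.46 ± 0.30 (adjusted p = 0.00497 by limma) and 1.16 after quantile normalization. With normexp it was 0.69 on the 75th percentile scale (adjusted p = 0.0013) and 0.23, not past the threshold, with quantile normalization (adjusted p = 0.091). Since the probe entered the test only through the PGC-1α arrays, these values are a description and no support for a rise. A brighter probe of Mrps14 lost the spots of 3 arrays to outlier marks, and with those spots kept, a choice made after seeing the data, it gave 0.35 ± 0.13 (adjusted p = 0.0454).

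Of the other Mrps genes that rose on the main scale, Mrps33 rose by 0.64 ± 0.13 (adjusted p = 0.00452 by limma), Mrps25 by 0.50 and Mrps5 by 0.49. None of these passed after quantile normalization, where they had 0.16, 0.17 and 0.19. Mrps33 and Mrps25 are particular to mitochondria, while Mrps5 has a bacterial counterpart at the entry of the messenger. Another, dim probe of Mrps33 gave -0.08, far from the 0.64 and 0.73 of its bright probes.

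The symbols do not always match the place of the protein. MRPS18A and MRPS30 are found in the large subunit, and MRPS36 is now known as a subunit of the 2-oxoglutarate dehydrogenase complex. All 3 of these genes were higher on the main scale. Mrps30 rose by 0.64 ± 0.17, Mrps18a by 0.55 ± 0.14 and Mrps36 by 0.47 ± 0.13 (adjusted p = 0.0153, 0.0124 and 0.0153 by limma). Left without them, the small subunit had 7 of 26 genes higher, among them Mrps14, which entered the test only through its PGC-1α arrays. After quantile normalization the 3 had 0.37, -0.03 and 0.21, and none passed. Of the paralogs of Mrps18a, Mrps18b, a protein of the small subunit, had 0.20 ± 0.15 and Mrps18c, the counterpart of bacterial S18, had -0.01 ± 0.15, and neither passed.

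Proteins with and without a bacterial counterpart were counted apart. On the main scale, 17 of 30 large subunit genes with a counterpart were higher and 2 lower, and 9 of 18 of those particular to mitochondria were higher and 1 lower, with medians of 0.37 in both. In the small subunit 5 of 16 with a counterpart were higher and 1 lower, and 2 of 10 particular to mitochondria were higher, with medians of 0.35 and 0.24. Mrps14, which entered the test only through its PGC-1α arrays, was 1 of the 5. Of all genes 36.9% were higher and 19.6% lower, and of the genes with the brightest signal 45.7% and 4.76%. The share higher lay above both of these values in the large subunit and below both in the small subunit, with or without a counterpart. After quantile normalization the 4 medians lay between -0.06 and 0.00. There 2 large subunit genes with a counterpart were higher and 3 lower, and of those particular to mitochondria 0 and 2. In the small subunit these counts were 1 (Mrps14) and 1, and 0 and 0. The differences between these classes were not tested.

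Several members are known for a role of their own. Mrpl12, which forms the stalk and also binds the mitochondrial RNA polymerase, rose by 0.47 ± 0.15 on the main scale and had -0.10 after quantile normalization. Mrpl11, at the base of the stalk, rose by 0.37 ± 0.13 and had -0.09. Mrpl44, an RNase III-like protein, rose by 0.45 ± 0.15, but its second probe gave 0.07. Mrpl58, a peptidyl-tRNA hydrolase built into the ribosome, had 0.24 ± 0.13 by 1 probe and -0.19 by another, and neither passed on the main scale.

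Mrpl3, beside the peptidyl transferase centre, had -0.11 ± 0.12 on the main scale, with arrays at 1.58, 1.54 and 1.43 in control cells and 1.41, 1.47 and 1.35 with PGC-1α. Mrps22 had 0.02 ± 0.11, and all 6 of its arrays lay between 2.14 and 2.23. Mrps12, a protein of the decoding centre, had 0.24 ± 0.14, Mrps16 had 0.31 ± 0.13 and Mrps34 had 0.28 ± 0.15, and none of the 3 passed. Mrpl15 and Mrpl46 were lower after quantile normalization, and on the main scale, where they did not pass, they had 0.07 and -0.17. In all 37 members did not pass on the main scale and 68 did not pass after quantile normalization.

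Mrpl49 could not be tested, since the spots of its only probe were marked as outliers on slide 2 in both groups. Its remaining values were -0.03 and -0.36 in control cells and 0.44 and 0.64 in PGC-1α cells. With outlier spots kept it had 0.52 ± 0.24 (adjusted p = 0.0956). Of the 104 probes 98 were tested. Among the 19 genes with several tested probes, 14 had the same call on every probe, 5 had some probes past the threshold and some not, and none had probes past it in both directions, where 52.7% of the 24557 probes tested on the array passed.

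Motifs and changes were set side by side without a test. Among large subunit genes with a promoter and a test, 9 of 12 with the NRF1 core were higher on the main scale and none was lower, and 14 of 30 without it were higher. Over all protein-coding genes 416 of 1527 with the NRF1 core were higher and 3847 of 10739 without it. In the small subunit 0 of 4 with the NRF1 core were higher and 9 of 22 without it. With the ETS core 8 of 15 Mrpl genes were higher, and without it 15 of 27. For Mrps genes these counts were 2 of 11 with the ETS core and 7 of 15 without it. For all protein-coding genes they were 533 of 2039 and 3730 of 10227. Of 8 tested members with the YY1 core 3 were higher (Mrpl37, Mrpl42 and Mrps18a) and 2 lower (Mrpl35 and Mrpl36). The others, Mrps11, Mrps24 and Mrps27, did not pass. Among protein-coding genes with the YY1 core 98 of 358 were higher and 79 lower. Of the 4 members that fell on both scales, Mrpl35 and Mrpl36 held the YY1 core, that of Mrpl35 after the start, and none held the NRF1, ETS or ERR letters in its 300 bases. Of the 3 that passed upward on both scales Mrpl9 held the NRF1 core, and Mrpl47 and Mrps14 held none of the 4 motifs. Mrps14 entered the test only through its PGC-1α arrays. It is also counted above among the higher Mrps genes without the NRF1 or ETS core.

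Many of the genes that build the mitochondrial ribosome fell. In a list of 27 genes of assembly, ribosomal RNA modification and mitochondrial transcription, 12 were lower and 2 higher on the main scale, and 13 lower and none higher after quantile normalization. Of the 27 genes 11 were lower on both scales. Over all genes 19.6% were lower and 36.9% higher on the main scale, and 20.9% and 21.7% after quantile normalization. The median was -0.31, against 0.23 for all genes, and -0.39 after quantile normalization, against 0.03. Only 8 of the 27 lay in the brightest class of signal, and 19 lay in the middle classes, where the medians of all genes were 0.05 and -0.05 and 30.7% and 26.1% of genes were lower. After quantile normalization 29.9% and 24.3% of the genes of the middle classes were lower.

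Mrm2, which methylates the ribose of a uridine in the large ribosomal RNA, changed most. It read -0.92, -1.01 and -1.16 in control cells and -3.47, -3.27 and -3.42 with PGC-1α, with the groups far apart. Its log2 fold change was -2.36 ± 0.13 (adjusted p = 2.57e-05 by limma), and -2.40 after quantile normalization. Mrm3, another ribose methyltransferase of the same RNA, fell by 1.31 ± 0.15 and Mrm1, the third, fell by 0.66 ± 0.12 on the log2 scale. Fastkd2, an RNA-binding protein of large subunit assembly, fell by 1.48 ± 0.12. Ddx28, a DEAD-box helicase of the same step, fell by 1.27 ± 0.13.

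The pseudouridine enzymes Trub2 and Rpusd3 fell by 1.26 ± 0.15 and 0.63 ± 0.15 on the log2 scale, and the assembly GTPase Mtg2 by 0.81 ± 0.12. Tfam, which packages mitochondrial DNA and starts its transcription, read 1.61, 1.64 and 1.55 in control cells and 1.15, 1.14 and 0.95 with PGC-1α and fell by 0.52 ± 0.12. Mrm2, Mrm3, Mrm1, Fastkd2, Ddx28, Trub2, Rpusd3, Mtg2 and Tfam were lower in all 22 analyses. The 2 higher genes were Mpv17l2 at 0.50 and Malsu1 at 0.34, and they had 0.13 and 0.08 after quantile normalization, where neither passed.

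**Figure D4:**
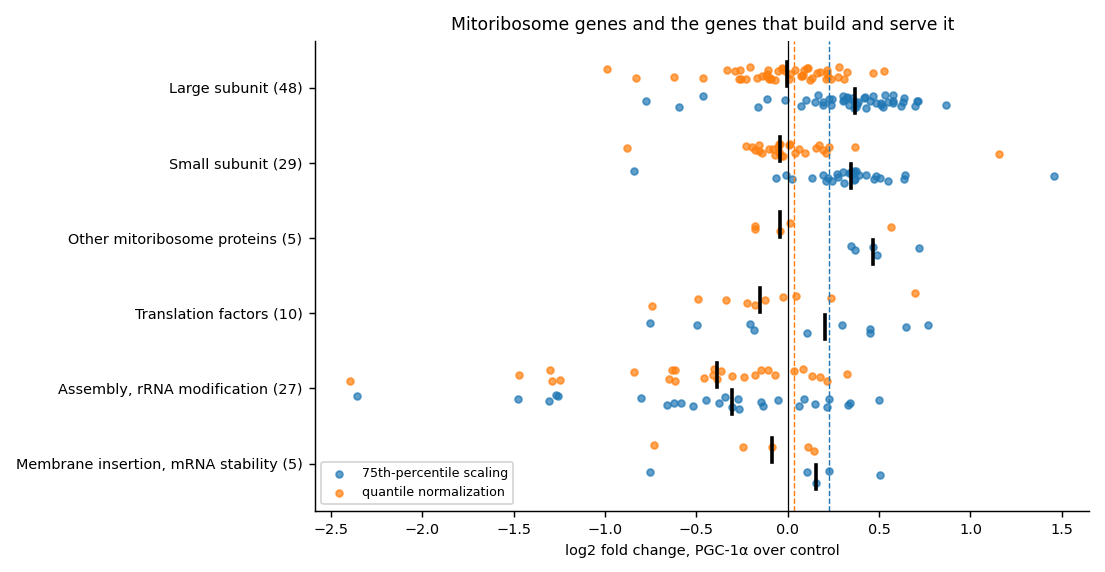
Log2 fold change (PGC-1α over control) of each tested gene of 6 lists, on the main scale (blue) and after quantile normalization (orange), with black bars at the list medians and dashed lines at the medians of all genes (0.23 and 0.03); the number of genes tested stands in parentheses. The blue and orange points overlap in both subunits, with medians of 0.37 and 0.35 on the main scale and -0.003 and -0.05 after quantile normalization, and those of the assembly list reach down to -2.36 and -2.40.

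Proteins of the ribosome that carry other names made a list of 5 genes, all in the brightest class of signal. On the main scale 4 of the 5 were higher, with a median of 0.46, where 45.7% of that class were higher. After quantile normalization 1 was higher. That gene was Ptcd3, a pentatricopeptide protein of the small subunit, at 1.13, 1.28 and 1.04 in control cells and 2.14, 1.74 and 1.73 with PGC-1α. It rose by 0.72 ± 0.15, and by 0.56 after quantile normalization (adjusted p = 0.0255 by limma). Chchd1 rose by 0.49 on the main scale and had 0.01 after quantile normalization.

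Of 10 translation factors 3 were higher and 2 lower on the main scale, where 36.9% of all genes were higher and 19.6% lower. After quantile normalization 1 was higher and 2 were lower, where 21.7% of all genes were higher and 20.9% lower. Guf1, an elongation factor 4 relative, rose by 0.77 ± 0.17 and by 0.70 after quantile normalization. Gfm1, the translocation factor, rose by 0.65 ± 0.14 on the main scale and had 0.24 after quantile normalization. Mtfmt, which formylates the initiator methionyl-tRNA, fell by 0.75 ± 0.24 and Mtrf1l, a release factor, fell by 0.50 ± 0.15, both also lower after quantile normalization. Among 5 genes of membrane insertion and messenger stability, Taco1, a translational activator of a cytochrome oxidase subunit, fell by 0.75 ± 0.17, and Slirp, which stabilises mitochondrial messengers, rose by 0.51 ± 0.14 on the main scale and had 0.11 after quantile normalization.

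Other sets of bright genes were higher more often. On the main scale 71 of 77 cytosolic ribosomal protein genes were higher, with a median of 0.62, and 59 of 71 oxidative phosphorylation subunits, with a median of 0.53, where 36 of 77 mitochondrial ribosomal genes were higher with a median of 0.36. After quantile normalization 1 and 4 genes of those lists were higher, their medians were 0.01 and 0.04, and none of either list was lower on either scale. Of all genes 36.9% were higher and 19.6% lower on the main scale, and 21.7% and 20.9% after quantile normalization. In the brightest class, which held 74 and 66 genes of the lists, these shares were 45.7% and 4.76%, and 7.64% and 9.82%. The difference between the sets was not tested.

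The number of members past the threshold depended on the arrays. Without control replicate 1, 2 or 3, or PGC-1α replicate 1 or 2, 17, 14, 15, 14 and 17 Mrpl genes were higher in place of 26. Without control replicate 2 or PGC-1α replicate 1, 3 and 6 Mrps genes were higher in place of 10. The numbers of lower genes, 3 Mrpl and 1 Mrps, did not change whichever array was left out. Calls over all genes fell in the same fits. They went from 6290 higher to 4947, 5198 and 4746 without control replicate 1, 2 or 3. For PGC-1α replicate 1 or 2 left out they were 4708 and 5236. Leaving out PGC-1α replicate 3 went the other way over all genes, with 6759 higher. In that fit 22 Mrpl genes and 10 Mrps genes were higher.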

How the data were processed

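RNA of LPS-treated BV2 cells was measured on 6 single-colour Agilent arrays, 3 per group, grouped by the sample labels. The authors' scanner software (Agilent Feature Extraction 11.5.1.1) gave each spot a background-corrected intensity, deposited as read from each array. The labels and methods name Cy5 as the dye, whereas the scanner files hold a green channel alone, and that channel gave every intensity used. A second deposited table holds log2 values of 42110 probes, normalized by the authors in GeneSpring by a method not given in the sources used here, and served as an alternative. For the main scale, control spots and outlier spots (149 to 1590 per array) were dropped and the 75th percentile of the array was subtracted from log2 intensity. The number of arrays limits the precision. RefSeq accessions (GRCm38.p6) named 33767 of 56605 probes. A probe entered the test with 2 or more values in each group and with a signal well above background on every array of 1 group or both, and each gene took its brightest such probe. Groups were compared two-sided with lmFit and eBayes (limma 3.58.1, R 4.3.3) and a Benjamini-Hochberg adjusted p of 0.05. The fit was tested on simulated data.

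Named members were, per subunit, the 6 largest rises and up to 6 largest falls past the threshold without overlap between groups, fixed genes of known roles, and untested members. From the other lists up to 4 genes that fell and 2 that rose were named, and Mrm1, Trub2, Rpusd3, Mtg2, Tfam, Mrpl15, Mrpl46 and the markers were named after their values were seen. Ribosomal S6 kinases and Rps19bp1 were left out of the cytosolic list, and old symbols in the assembly list were merged. Members and lists were chosen with earlier results of these data known. The alternatives were other scalings, background corrections, filters, probe rules, blocks, weights and left-out arrays.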

Additional observations from a re-analysis of the deposited data

How the results depend on the processing

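The counts of members past the threshold, the medians and the signs of several genes changed with the scaling. Main values were 26 Mrpl genes higher and 3 lower, 10 Mrps genes higher and 1 lower, and medians 0.14 and 0.12 above that of all genes. Quantile normalization gave 2 and 5, 1 and 1, and medians of -0.037 and -0.080 relative to all genes. Cyclic loess gave 3 and 5 Mrpl genes, 1 higher Mrps gene and medians of 0.017 and -0.016, scaling to the array median 13 and 5 higher genes, normexp with quantile normalization 3 and 0 higher genes and medians of -0.028 and -0.048, and the authors' log2 values 2 and 7 Mrpl genes, 1 higher Mrps gene and medians of -0.034 and -0.084. Normexp with the 75th percentile gave medians of 0.0615 and 0.0125. No filter on dim probes gave 15 and 6 higher genes and medians of 0.0269 and 0.0016, slide 1 alone 15 higher and 1 lower Mrpl genes, variance trend with robust estimation 18 and array weights 16 higher Mrps genes, with a Mrps median of 0.0612. Requiring a log2 fold change of 1 left 0 Mrpl genes higher and 0 lower and 1 Mrps gene higher and 0 lower. That gene was Mrps14, whose probe entered the test only through the PGC-1α arrays, so it is no support for a rise. Leaving out 1 array at a time gave 14 to 22 higher Mrpl genes, 3 to 10 higher Mrps genes, and medians of 0.11 to 0.18 and 0.045 to 0.16, the lowest Mrps medians being 0.045 without control replicate 2 and 0.051 without PGC-1α replicate 2. On slide 2 alone the medians were 0.11 and 0.0704. Over all genes 9633 passed on the main scale, 6290 of them higher and 3343 lower. With normexp and quantile normalization 6359 passed, 2911 of them higher. Quantile normalization gave 3702 higher and 3559 lower genes, cyclic loess 3195 and 4180, and the authors' values 3963 and 3823. Higher genes were 4913 with median scaling, 6624 with variance trend and robust estimation, 7200 with array weights, and 5741 of 23333 without the filter. The cause of these changes was not tested. The other counts stayed within 1.5 times the main ones.

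The named members whose log2 fold change turned sign were, with quantile normalization, Mrpl11 -0.094, Mrpl12 -0.10, Mrpl58 -0.21, Mrps12 -0.14, Mrps16 -0.068, Mrps18a -0.025, Mrps18b -0.055, Mrps22 -0.23 and Mrps34 -0.046, with cyclic loess Mrpl11 -0.049, Mrpl12 -0.053, Mrpl58 -0.16, Mrps12 -0.12, Mrps16 -0.057, Mrps18a -0.007, Mrps18b -0.087, Mrps22 -0.26 and Mrps34 -0.048, with normexp and quantile normalization Mrpl11 -0.13, Mrpl12 -0.028, Mrpl58 -0.18, Mrps12 -0.13, Mrps16 -0.076, Mrps18b -0.028 and Mrps22 -0.05, and with the authors' log2 values Mrpl11 -0.12, Mrpl12 -0.13, Mrpl58 -0.22, Mrps12 -0.16, Mrps16 -0.088, Mrps18a -0.058, Mrps18b -0.074, Mrps22 -0.24 and Mrps34 -0.067. Mrps22 had -0.089 with median scaling, -0.0040 with array weights, and -0.0020 to 0.038 over the left-out arrays, the lowest without PGC-1α replicate 2. Mrpl35 had 0.19 with normexp and the 75th percentile. Mrps18c, at -0.01 on the main scale, had 0.039 with array weights, 0.022 with outlier spots kept, and 0.0080 to 0.058 without control replicate 2 or 3 or PGC-1α replicate 1 or 3, with 0.050 and 0.034 for the latter pair. Over the named members and settings, 456 values kept their direction and side of the threshold, 77 no longer passed, 3 newly passed and 45 turned sign.

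Replicates 1 and 2 of each group lay on slide 1 and replicate 3 on slide 2. The replicate numbers did not pair the arrays of slide 1. Deviations from the group means of same-numbered arrays correlated at -0.16, 0.07 and 0.60, and control 1 and control 2 correlated best with another number. With the replicate number as a block, 25 Mrpl genes were higher and 3 lower, 11 Mrps genes were higher and 1 lower, and 10561 of all genes passed in place of 9633. Mrps18c had 0.0080 in that fit.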
